A study of Mus musculus with 64 samples.

Results

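Astrocytes are the star-shaped glial cells that clear glutamate from the synapse, buffer potassium and water at their endfeet on blood vessels, store glycogen and pass ions and metabolites to one another through gap junctions. Their marker genes encode the proteins that do this work, and in the adult brain most of these genes are read at far higher levels in astrocytes than in neurons. The 32 genes described here are such markers, listed by name, and all 32 were found among the 46785 genes of the deposited isoform tables, where they took up 151 of 112714 transcripts. A gene level was the sum of the FPKM values (fragments mapped to a transcript, scaled for its length and for the mapped fragments of the library) of its transcripts in a library. All 32 members, and 141 of their transcripts, passed a filter on low values that kept 37034 genes and 86331 transcripts with a mean of at least 0.1 FPKM in either tissue.

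The libraries came from the nucleus accumbens (NAc), the ventral part of the striatum, and the prefrontal cortex (PFCx: cingulate, prelimbic and infralimbic cortex with part of the dorsal peduncular cortex) of adult male C57BL/6N mice aged 8 to 10 weeks. Each mouse had 1 intraperitoneal injection and was killed 2 h later. The drugs were the antipsychotics haloperidol (1 mg/kg) and risperidone (0.5 mg/kg), both dissolved in saline with a drop of hydrochloric acid, the psychostimulant methamphetamine (2 mg/kg), the antidepressants mianserin (20 mg/kg) and venlafaxine (16 mg/kg) and the psychotomimetic ketamine (20 mg/kg). There were 4 libraries for each drug in each tissue and 8 saline libraries in each tissue, 64 libraries in all. The labels part the saline libraries into set I and set II, 4 of each in each tissue, and do not say whether libraries came from separate mice, so the p-values measure the spread between these libraries, which may be technical in part.

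The labels do not place the drugs in a set, but the NAc tables do so by a technical property. In NAc the libraries of saline I, haloperidol, risperidone and methamphetamine listed 85287 to 87827 transcripts above 0, and those of saline II, mianserin, venlafaxine and ketamine listed 107099 to 110556. In PFCx the number was 108556 to 110852 in all libraries, and the division seen in NAc was carried over. Drug and set therefore cannot be told apart when a drug is held against all 8 saline libraries, so a second comparison used just the 4 of the set a drug belongs to, called its own set below. The aligned sequence ranged from 1.523 to 3.263 gigabases per library (median 2.39).

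The members covered a wide range of levels, which FPKM makes comparable between genes. In saline libraries of NAc and PFCx the highest was Slc1a2, the glial glutamate transporter GLT-1, at 175 ± 13.4 and 201 ± 9.23 FPKM (mean ± SD, n = 8 in each tissue). Apoe, the lipid carrier apolipoprotein E, followed in NAc at 140 ± 47.6 FPKM, and Sparcl1, the secreted matrix protein hevin, in PFCx at 171 ± 15.4. The lowest member was Cyp4f14, a fatty acid hydroxylase, at 0.915 FPKM in NAc and 0.945 in PFCx, and it was the 1 member below 1 FPKM. The classical astrocyte marker Gfap, an intermediate filament protein, was low in both tissues, at 3.79 ± 0.948 FPKM in NAc (rank 25 of 32) and 7.65 ± 1.61 in PFCx (rank 18). The members summed to 1060 ± 140 FPKM in NAc and 1090 ± 96.5 in PFCx, ranges that overlapped. In bulk tissue, fewer astrocytes and less RNA per astrocyte cannot be told apart. Neuronal markers matched the tissue labels, since a list of 10 markers of medium spiny neurons, the main neurons of the striatum, summed to 645 to 858 FPKM in NAc and 38.3 to 111 in PFCx, and a list of 8 markers of cortical projection neurons summed to 29.8 to 79.2 and 198 to 253.

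The promoters of a pair of members are given first, because the drug results below turn on these genes. Ppp1r3c encodes a subunit of protein phosphatase 1 that directs it to glycogen, of which astrocytes hold most of the brain's store. Gjb6 encodes connexin 30, a gap junction protein of astrocytes. The sequences are the 250 bases before the RefSeq start of each gene, both on the minus strand of GRCm38.p6, at chr19:36736605-36736854 for Ppp1r3c and chr14:57133612-57133861 for Gjb6, written 5′ to 3′ in the direction of transcription. Capitals mark matches on either strand to ACGTG, a run that the E-box CACGTG contains, and TGACG, the core of a cAMP response element, was searched in the same way.
Ppp1r3c: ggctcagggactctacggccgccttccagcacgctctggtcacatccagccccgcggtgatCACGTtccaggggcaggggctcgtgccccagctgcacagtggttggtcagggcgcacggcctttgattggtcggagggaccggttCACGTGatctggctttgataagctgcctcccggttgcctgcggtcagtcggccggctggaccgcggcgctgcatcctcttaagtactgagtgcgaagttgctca
Gjb6: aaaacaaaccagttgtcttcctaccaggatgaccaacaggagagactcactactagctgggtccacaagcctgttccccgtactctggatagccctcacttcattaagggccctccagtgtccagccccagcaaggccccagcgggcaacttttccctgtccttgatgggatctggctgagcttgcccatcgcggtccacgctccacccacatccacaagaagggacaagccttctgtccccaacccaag
ACGTG occurred 3 times in the Ppp1r3c window over both strands, with 2 of these overlapping in 1 palindrome, and TGACG did not occur. Neither was in the Gjb6 window. Of all 32851 promoters in the table, 16.6% held ACGTG and 17.8% held TGACG. Of the 28 members matched to the table, 4 held ACGTG (Cbs, Cldn10, Ntsr2 and Ppp1r3c) and 2 held TGACG (Gja1 and Slc1a3). A match is a run of letters and was not tested for binding.

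The tissues differed in which astrocyte genes were high, more than in the sum. In saline libraries 12 of the 32 members were higher in NAc (8.41% of all genes tested were called higher in NAc) and 6 were higher in PFCx (31.5% of all genes), at an adjusted p under 0.05 from limma with the saline set as a covariate. The median difference of the members, NAc minus PFCx, was 0.10 on the log2(FPKM + 1) scale against -0.10 for all genes tested, and 19 members were above 0. All differences below are on this scale, which understates the change of low genes. The shares and the median of all genes include many low genes and were not taken at the levels of the members, of which 1 lay below 1 FPKM. The 18 called members had the same sign in both sets, but the counts differed between the sets. In set I alone 12 members were higher in NAc (5.56% of all genes) and 5 in PFCx (29.7%), in set II alone 5 were higher in NAc (6.74%) and 7 in PFCx (14.1%), and 10 of the 18 passed in both sets, 5 in each direction. All 8 NAc libraries stood above all 8 PFCx libraries in 4 members (2.83% of all genes) and below them in 4 (5.67%). In set I the NAc libraries listed fewer transcripts above 0 (85287 to 87827) than the PFCx libraries (108878 to 110852). Within set I, tissue and this property cannot be told apart, and a set covariate does not remove it. Its part in the tissue differences was not tested.

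The members farthest to the NAc side were Slc4a4, Hepacam, F3 and Mlc1. Slc4a4, the sodium bicarbonate cotransporter NBCe1 (ENSMUSG00000060961, chr5:88886818-89239653 in mm10, plus strand), measured 22.6 to 31.1 FPKM in NAc (median 23.4) and 10 to 14.8 in PFCx (median 12.9). The groups did not overlap, and the difference was 0.96 ± 0.086 (SE, adjusted p = 2.86e-07). Hepacam, an adhesion molecule that holds Mlc1 at cell contacts, measured 7.33 to 8.69 FPKM (median 8.05) and 5.0 to 6.26 (median 5.54), again without overlap, a difference of 0.46 ± 0.044 (adjusted p = 7.14e-07). Mlc1 itself, a membrane protein of the endfeet, measured 14 to 15.7 FPKM (median 14.6) and 9.96 to 12.8 (median 11.2), a difference of 0.34 ± 0.045 (adjusted p = 2.27e-05). F3, tissue factor, the starter of blood coagulation, measured 4.65 to 6.86 FPKM (median 6.04) and 3.63 to 5.88 (median 4.32), with overlap and a difference of 0.34 ± 0.065 (adjusted p = 0.000763). Of the other 8 members higher in NAc, Acsbg1, an acyl-CoA synthetase, was the 1 whose libraries did not overlap. They had differences between 0.15 (Ppp1r3c) and 0.29 (Gpr37l1, a G protein-coupled receptor of astrocytes), and included the gap junction protein Gja1, the calcium-binding S100b and the neurotensin receptor Ntsr2. Apoe lost its call (0.29, adjusted p = 0.0258) without NAc saline I replicate 1 (0.05) or PFCx saline I replicate 3 (0.0521), and Ttyh1 (0.17, adjusted p = 0.0424) lost it in 12 of 16 fits without 1 library and was lower in NAc when its highest transcript alone was used (-0.61).

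The members higher in PFCx were the filament Gfap, the gap junction gene Gjb6, the water channel Aqp4, the secreted Sparcl1 and a pair of glutamate carriers. Gjb6 (ENSMUSG00000040055, chr14:57123303-57133611, minus strand) measured 2.12 to 3.53 FPKM in NAc (median 2.73) and 4.61 to 8.59 in PFCx (median 6.18). The groups did not overlap, and the difference was -0.89 ± 0.106 (adjusted p = 7.97e-06). Gfap measured 2.77 to 5.12 FPKM (median 3.69) and 4.52 to 9.74 (median 7.70), a difference of -0.85 ± 0.099 (adjusted p = 5.4e-06) with a small overlap. Sparcl1 measured 92.1 to 116 FPKM (median 99.0) and 147 to 200 (median 171), without overlap, a difference of -0.75 ± 0.052 (adjusted p = 1.41e-08). Slc25a18, the mitochondrial glutamate carrier, measured 2.28 to 3.59 FPKM (median 2.88) and 4.07 to 5.5 (median 4.91), without overlap, a difference of -0.60 ± 0.074 (adjusted p = 1.2e-05). Aqp4, the main water channel of the endfeet, measured 3.71 to 5.20 FPKM (median 4.42) and 5.37 to 6.93 (median 6.11), without overlap, a difference of -0.40 ± 0.061 (adjusted p = 9.76e-05). Slc1a2 measured 156 to 200 FPKM (median 175) and 194 to 217 (median 197), which overlapped, and differed by -0.20 ± 0.048 (adjusted p = 0.00399).

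The gap junction pair thus parted by tissue, with Gja1 (connexin 43) higher in NAc by 0.23 ± 0.063 (adjusted p = 0.0101) and Gjb6 higher in PFCx. The Gja1 difference was 0.39 in set I alone (adjusted p = 0.00773) and 0.068 in set II alone (0.522). That of Gjb6 was -0.92 and -0.85. The genes grouped under water and ion handling at the endfeet parted too. Of these, 4 of 6 were higher in NAc (8.41% of all genes) and 1, Aqp4, in PFCx (31.5%). Among the 4 was Ttyh1, whose call was not firm, as given above. Of 6 glutamate and amino acid handling genes 0 were called higher in NAc and 2 higher in PFCx, shares near those of all genes. Aldh1l1, a folate enzyme used as a general astrocyte marker, measured 4.53 to 6.64 FPKM in NAc (median 5.10) and 4.51 to 7.05 in PFCx (median 6.31) and was not called (-0.19 ± 0.084, adjusted p = 0.078). The 14 members that were not called also included Slc1a3, Aldoc, Glul, Sox9, Clu and both metallothioneins. In the plot of tissue differences, members of 1 role stand on both sides of 0.

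**Figure D1:**
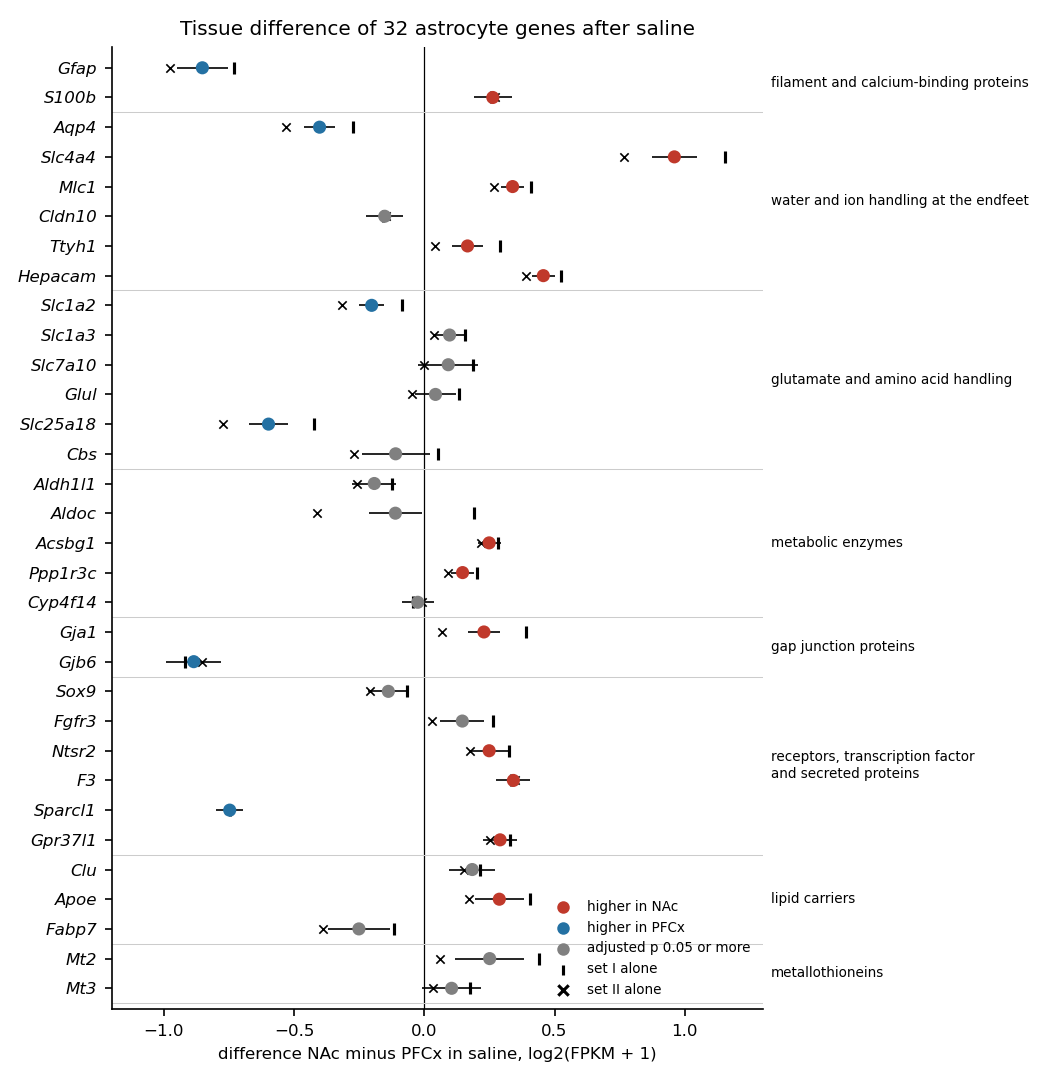
Differences between the tissues in saline libraries for the 32 members, grouped by role (log2 NAc minus PFCx of FPKM + 1; 8 libraries per tissue; bars are SE; red higher in NAc, blue higher in PFCx, grey not called; the tick and the cross give set I and set II alone). Slc4a4 stands farthest to the NAc side at 0.96, and Gjb6 and Gfap farthest to the PFCx side at -0.89 and -0.85.

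Markers of other cells moved between the tissues as well. For the counts that follow, 8.41% of all genes tested were called higher in NAc and 31.5% higher in PFCx. All 10 oligodendrocyte markers were higher in NAc, with sums of 592 to 810 FPKM against 152 to 211 in PFCx, none of them at 0. Of 5 meningeal and fibroblast markers 4 were higher in PFCx, with sums of 3.73 to 7.24 FPKM in NAc and 7.08 to 12.5 in PFCx. Of 15 genes of reactive astrocytes, the state taken after injury or inflammation, 10 were higher in PFCx and 0 in NAc (median -0.24), with sums of 8.92 to 14.8 and 14.5 to 19.5 FPKM. Most of the 15 were low, with 13 below 1 FPKM in NAc and 11 in PFCx. Among the 15 genes Cd44, the hyaluronan receptor, differed by -0.45 and the complement component C3 by -0.41. A further 35 astrocyte genes were called in the same numbers as the members, 12 higher in NAc and 6 in PFCx, with Id4, an inhibitor of DNA binding, at 1.40 and Chrdl1, a secreted BMP antagonist, at -0.95. The part of these other cells in the member differences was not tested.

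The saline sets differed from each other in astrocyte genes, above all in NAc. In NAc 12 members were higher in set I than in set II and 0 lower (24.7% of all genes were called in either direction), 31 of 32 differences were above 0, and the median was 0.18 against -0.081 for all genes. All genes include many low ones. Those with a mean of at least 1 FPKM, the level of nearly all members, had NAc medians of 0.004 to 0.073 by transcript length. The number called was 7 without saline II replicate 3 and 7 after rescaling to the 75th percentile, where 28 differences were above 0. In PFCx 3 members were higher in set I and 1 lower (9.2% of all genes were called), with a median of 0.032 against 0.01. Apoe measured 183 FPKM in set I and 96.6 in set II of NAc, a difference of 0.93 ± 0.151 (adjusted p = 0.000119), and 139 and 86.4 in PFCx (0.69 ± 0.16, adjusted p = 0.00452). Mt3, the metallothionein of the brain, measured 35.3 and 18.9 FPKM in NAc (0.87 ± 0.127) and 30.9 and 18.5 in PFCx (0.73 ± 0.159), and Glul, glutamine synthetase, 134 and 93.4 (0.51 ± 0.085) and 122 and 97.3 (0.33 ± 0.102). These were the 3 members called in both tissues. Gfap was called in NAc (4.64 and 2.94 FPKM, 0.52 ± 0.142, adjusted p = 0.00943), and Aldoc, the brain aldolase, was lower in set I in PFCx (84.6 and 113 FPKM, -0.42 ± 0.084, adjusted p = 0.00112).

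Members with short transcripts had the larger set differences. The 5 members whose main transcript was under 1500 bases had a median set difference of 0.58 in NAc and 0.31 in PFCx, and the other 27 had 0.16 and 0.013. Over all genes with a mean of at least 1 FPKM the medians also fell with length, from 0.073 to 0.004 in NAc and from 0.15 to -0.023 in PFCx. Marker sums of other cells also parted between the NAc sets without overlap. Set I was higher for oligodendrocyte markers (708 to 810 against 592 to 655 FPKM), pan-neuronal markers (546 to 602 against 487 to 532), cortical projection neuron markers (60 to 79.2 against 29.8 to 54.6) and oligodendrocyte precursor markers (10 to 11 against 8.91 to 9.88), and set II for meningeal markers (3.73 to 4.12 against 4.8 to 7.24). The cause of the set difference was not tested.

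**Figure D2:**
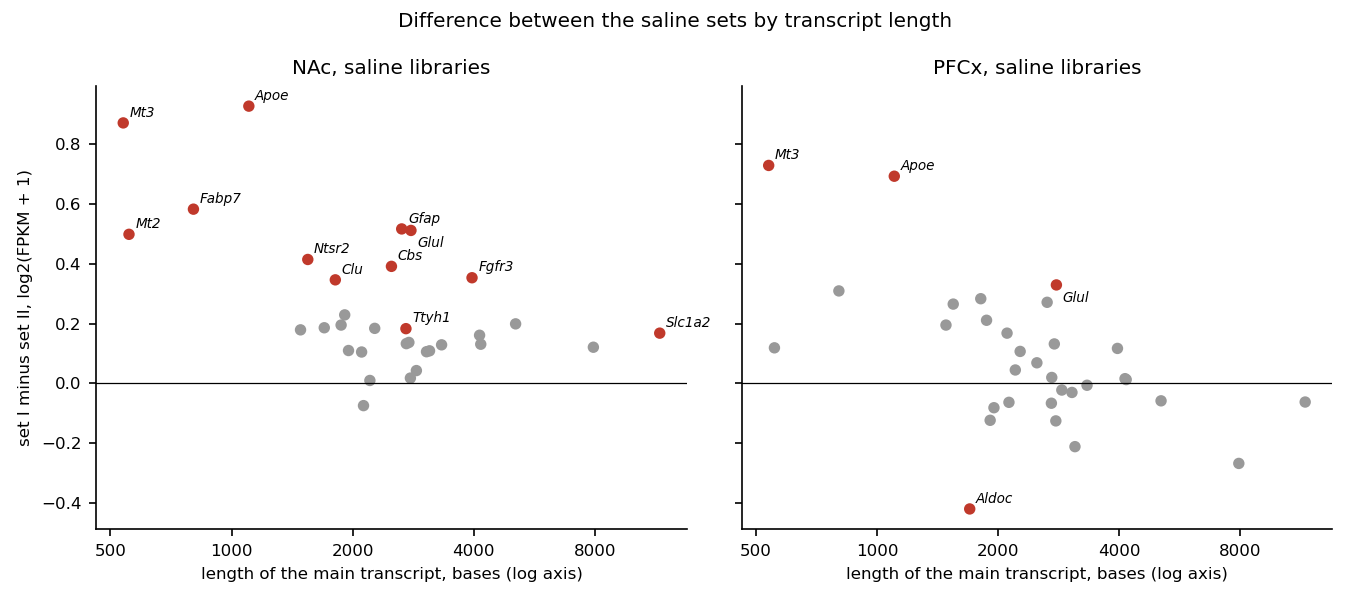
Difference between the saline sets for each member (log2 set I minus set II of FPKM + 1, 4 libraries per set) against the length of its main transcript in bases on a log axis, for NAc and PFCx; red points have an adjusted p under 0.05. In NAc 31 of 32 points lie above 0, and the short Apoe and Mt3 stand highest in both tissues.

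The mean over the 32 members, given as a description with no test, followed the sets. In NAc it was 3.97 ± 0.052 in saline I (SD, n = 4) and 3.72 ± 0.049 in saline II. The set I drugs had 4.00 ± 0.021 (haloperidol), 4.00 ± 0.031 (risperidone) and 3.99 ± 0.043 (methamphetamine). The set II drugs had 3.78 ± 0.041 (mianserin), 3.66 ± 0.069 (venlafaxine) and 3.83 ± 0.053 (ketamine). Against all saline libraries the NAc differences ran from -0.19 (venlafaxine) to 0.15 (risperidone). Against the own set they ran from -0.062 (venlafaxine) to 0.11 (ketamine), and haloperidol, risperidone and methamphetamine stood at 0.023, 0.026 and 0.015. In PFCx the own-set differences ran from -0.019 to 0.07. The SD between libraries within groups, pooled over both tissues, was 0.07. In NAc the group SDs ran from 0.021 to 0.069, and in PFCx from 0.048 (methamphetamine) to 0.128 (saline II). These SDs describe single libraries and are not a test of the differences between group means. Between the tissues the mean differed by 0.007 in saline, with 0.095 in set I and -0.08 in set II.

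**Figure D3:**
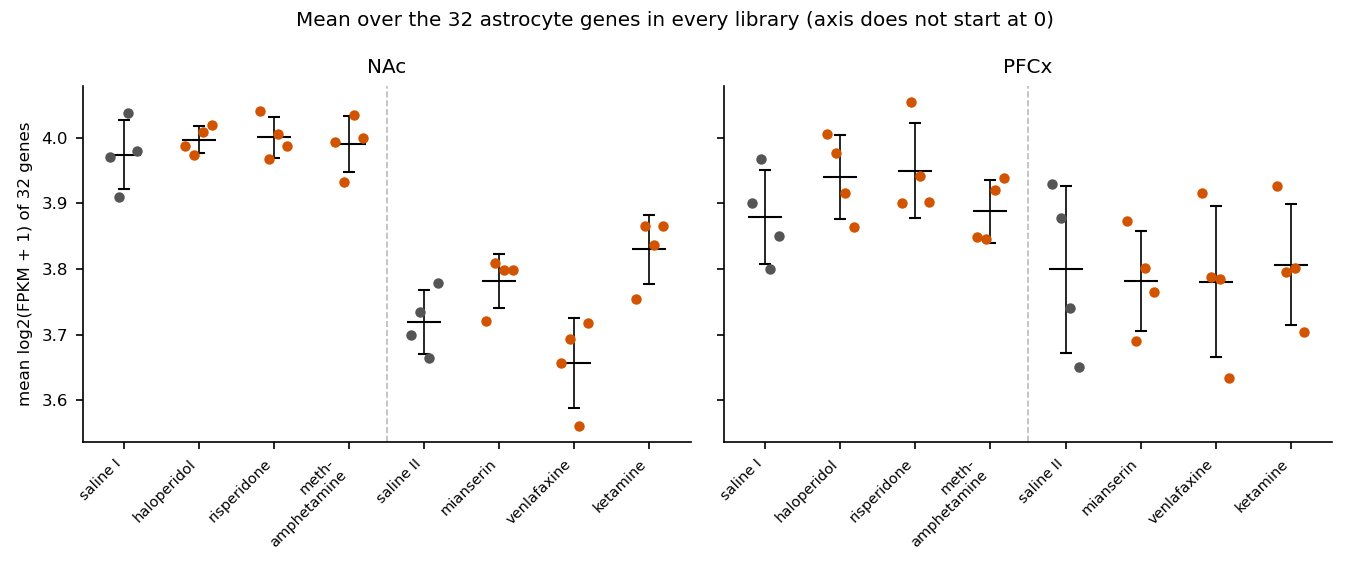
Mean over the 32 members of log2(FPKM + 1) in every library of NAc and PFCx, by treatment; points are libraries, bars are mean ± SD, and the dashed line parts set I from set II. In NAc all set I groups lie near 4.00 and the set II groups between 3.66 and 3.83.

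Few members changed with a drug once the set was held fixed. Over the 6 drugs together, 17 members passed the F test in NAc against all saline (36.9% of all genes) and 4 against the own set (1.63% of all genes): F3 (adjusted p = 0.0213), Gjb6 (0.0346), Aqp4 (0.0441) and Ppp1r3c (0.0469). These 4 NAc calls were not firm, since 0 were left with a pseudocount of 0.1, 2 after rescaling to the 75th percentile, 1 (F3) with the replicate number as a block and 1 to 4 without 1 library. In PFCx 4 members passed against all saline (3.34% of all genes), Mt3, Gjb6, Ppp1r3c and Apoe, and 1, Ppp1r3c, against the own set (adjusted p = 0.0121, 1.45% of all genes), and 1 member was called under each of these settings. Apoe and Mt3, which differed between the saline sets, had adjusted p-values of 0.631 and 0.952 against the own set in NAc and 0.944 and 0.966 in PFCx. Of 384 pairs of member and drug over both tissues, 7 were called against all saline and 5 against the own set, 3 of them with both controls. By drug and tissue the share of all genes called ran from 0.0054% to 1.97% against all saline. Against the own set it ran from 0.0081% to 2.01%. At an unadjusted p under 0.05 there were 109 against all saline, 40 against the own set and 29 with both, while 14.4%, 8.03% and 4.26% of all pairs of gene and drug were under it.

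Haloperidol changed 0 members in either tissue by limma, and so did risperidone. For haloperidol the share of all genes called was 0.721% in NAc and 0.162% in PFCx against all saline, and 0.235% and 0.0216% against the own set. For risperidone it was 0.729% and 0.51%, and 0.213% and 0.162%. At an unadjusted own-set p under 0.05 haloperidol had 1 member in NAc (6.22% of all genes) and 4 in PFCx (5.95%), and risperidone 1 (6.54%) and 3 (6.21%). Gjb6 stood highest with risperidone in NAc (0.40) and with haloperidol in both tissues (0.24 and 0.31), with adjusted p-values of 0.505, 0.936 and 0.813. With the same saline libraries as control for every drug of a set, these values are not independent.

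Methamphetamine raised Ppp1r3c. In PFCx (0.351% of all genes called against all saline, 0.159% against the own set) its level (ENSMUSG00000067279, chr19:36731731-36736653, minus strand) was 4.21, 5.03, 5.42 and 5.67 FPKM with the drug, 3.22, 3.26, 3.39 and 3.77 in saline I and 3.17, 3.30, 3.43 and 3.5 in saline II. All drug libraries stood above all saline libraries. The difference was 0.47 ± 0.071 (adjusted p = 0.000773) against all saline and 0.46 ± 0.084 (adjusted p = 0.0109) against the own set. It passed against all saline without any 1 library, and against the own set it was lost without methamphetamine replicate 1 (adjusted p = 0.0667) or 3 (0.0664) or saline I replicate 4 (0.0548). In NAc (0.194% and 0.0891% of all genes) methamphetamine gave 4.42, 4.91, 5.26 and 5.76 FPKM, against 3.68, 4.12, 4.22 and 4.30 in saline I and 3.30, 3.67, 3.78 and 3.78 in saline II. The libraries again did not overlap, with 0.32 ± 0.065 against all saline (adjusted p = 0.0247) and 0.26 ± 0.072 against the own set (adjusted p = 0.319). The NAc call was lost without methamphetamine replicate 1 (0.191), 3 (0.11) or 4 (0.0691) or saline II replicate 1 (0.0519) or 2 (0.0543). The own-set values of Ppp1r3c were above 0 with all 6 drugs in both tissues, with 0.28 for ketamine in NAc (adjusted p = 0.0539) and 0.29 for mianserin in PFCx (0.0749) next in size. In PFCx the Ppp1r3c libraries of haloperidol and mianserin also stood above all 8 saline libraries, with no call. Gjb6 with methamphetamine in NAc did so too, at 3.81, 3.81, 4.28 and 5.36 FPKM, with 0.45 against all saline (adjusted p = 0.189) and 0.40 against the own set (0.65).

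Ketamine raised Gjb6 and Aqp4 in NAc (1.97% of all genes called against all saline, 0.967% against the own set). Gjb6 measured 3.89, 4.08, 5.11 and 5.65 FPKM with ketamine, 2.12, 2.68, 2.76 and 3.44 in saline II and 2.45, 2.69, 3.46 and 3.53 in saline I. The ketamine libraries stood above all 8, with 0.55 ± 0.127 (adjusted p = 0.0265) against all saline and 0.60 ± 0.148 (adjusted p = 0.0439) against the own set. The call against all saline was lost without ketamine replicate 2 (0.0668) or 4 (0.0812) or saline I replicate 4 (0.0513), and that against the own set held in 18 of 32 fits without 1 library and was lost with a replicate block (0.0599) or a pseudocount of 0.1. Aqp4 measured 4.86, 5.40, 5.56 and 5.82 FPKM with ketamine and 3.71, 3.82, 4.00 and 4.54 in saline II, without overlap, while saline I reached 5.20. The difference was 0.35 ± 0.074 against the own set (adjusted p = 0.0104, and 0.0528 without saline II replicate 4) and 0.26 ± 0.072 against all saline (adjusted p = 0.0565). In NAc 26 of 32 members were above 0 with ketamine against the own set, with a median of 0.089 against 0.015 for all genes. All genes include many low ones, and the signs of members measured in the same libraries are not independent.

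Other cell lists moved with ketamine in NAc. Oligodendrocyte markers summed to 748 to 826 FPKM with ketamine and 592 to 655 in saline II, and 4 of 10 were called higher. Cortical projection neuron markers summed to 56.1 to 85.3 and 29.8 to 54.6 FPKM, and pan-neuronal markers to 534 to 598 and 487 to 532. The part of these in the Gjb6 and Aqp4 differences was not tested. In PFCx ketamine changed 0 members by limma (0.0162% of all genes against all saline, 1.51% against the own set). At an unadjusted p under 0.05 there were 5 members with either control, where all genes had 8.14% against all saline and 13% against the own set.

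Aqp4 was the member whose drug response differed between the tissues with both controls. In PFCx ketamine gave 4.29, 4.73, 5.31 and 5.55 FPKM, with 5.37, 6.31, 6.40 and 6.93 in saline II and 5.56, 6.01, 6.10 and 6.13 in saline I. These values, lower than most saline libraries, differed from the own set by -0.28 ± 0.089 (adjusted p = 0.12). The ketamine effect in NAc minus that in PFCx was 0.51 against all saline (adjusted p = 0.0237, 0.313% of all genes called) and 0.64 against the own sets (adjusted p = 0.000419, 2.02% of all genes called). Over all 6 drugs 2 members differed between tissues, Aqp4 (adjusted p = 0.0081) and Aldoc (0.0457), against all saline (12.9% of all genes), and 1, Aqp4 (0.0122), against the own sets (0.759% of all genes). Aqp4 passed in all 64 fits without 1 library and Aldoc in 27. Aldoc was lower in set I than in set II of PFCx saline, as given above, and over all 6 drugs had an adjusted p of 0.505 against the own sets. For ketamine alone the Aldoc effect in NAc minus that in PFCx was 0.41 against the own sets (adjusted p = 0.0393). Against all saline it was 0.11 (0.666).

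Mianserin was called for 3 members, 1 in NAc and 2 in PFCx. In NAc (1.84% of all genes against all saline, 0.273% against the own set) F3 (chr3:121723537-121735048) measured 7.2, 7.75, 8.88 and 8.91 FPKM, above the 4.65, 5.25, 5.94 and 6.06 of saline II and the 6.02, 6.34, 6.36 and 6.86 of saline I. The difference was 0.41 ± 0.107 (adjusted p = 0.0457) against all saline and 0.505 ± 0.119 (0.0682) against the own set, and the call held in 14 of 32 fits without 1 library, where the adjusted p ran from 0.0238 to 0.128. In PFCx (0.667% and 2.01% of all genes) Slc4a4 fell to 9.17, 9.49, 9.76 and 10.6 FPKM, below the 12.6, 13.3, 14 and 14.8 of saline II and overlapping the 10, 10.2, 11.6 and 13.3 of saline I. It differed by -0.45 ± 0.108 from the own set (adjusted p = 0.0248) and by -0.32 ± 0.102 from all saline (0.22). Over the 6 drugs together Slc4a4 did not pass the F test in PFCx (adjusted p = 0.16 against all saline and 0.139 against the own set). The own-set call was lost without mianserin replicate 1 (0.0889) or 2 (0.0584) or saline II replicate 1 (0.0695) or 4 (0.0933).

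Sox9, a transcription factor of the astrocyte lineage, was the other member that fell with mianserin in PFCx, and it is named here after its values were seen. It measured 1.95, 2.08, 2.10 and 2.67 FPKM with the drug, 2.42, 2.77, 3.05 and 3.58 in saline II and 2.85, 2.95, 3.01 and 3.09 in saline I. The highest mianserin library lay within the range of saline II. The difference was -0.31 ± 0.068 against all saline (adjusted p = 0.0224) and -0.30 ± 0.08 against the own set (0.0435). The call against all saline was lost without mianserin replicate 1 (0.0905), 3 (0.109) or 4 (0.105), and that against the own set held in 18 of 32 such fits and was lost with a replicate block (0.0525). In the same libraries the meningeal markers summed to 4.67 to 6.92 FPKM against 7.08 to 9.04 in saline II, and the pan-neuronal markers to 785 to 845 against 689 to 784. Their part in these differences was not tested.

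Venlafaxine was called in NAc against all saline only (1.83% of all genes, and 0.0081% against the own set). Apoe measured 47.1, 62.5, 84.9 and 91.8 FPKM, far below the 170, 184, 189 and 190 of saline I and overlapping the 85.6, 87.2, 96.7 and 117 of saline II. It differed by -0.93 ± 0.2 from all saline (adjusted p = 0.0349) and by -0.46 ± 0.151 from the own set (0.694). Without any 1 of the saline I libraries the call against all saline was lost, with adjusted p-values of 0.0708 to 0.0767, and likewise without venlafaxine replicate 1 (0.061) or 3 (0.16). Glul measured 70.0, 82.2, 91.0 and 91.1 FPKM, against 85.0, 92.0, 93.8 and 103 in saline II and 122, 124, 137 and 152 in saline I. It differed by -0.42 ± 0.111 (adjusted p = 0.0488, held in 6 of 32 fits without 1 library) and by -0.16 ± 0.085 from the own set (0.893). In PFCx venlafaxine changed 0 members by limma (0.0054% and 0.74% of all genes), with 5 (7.16% of all genes) and 1 (9.45%) members at an unadjusted p under 0.05.

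**Figure D4:**
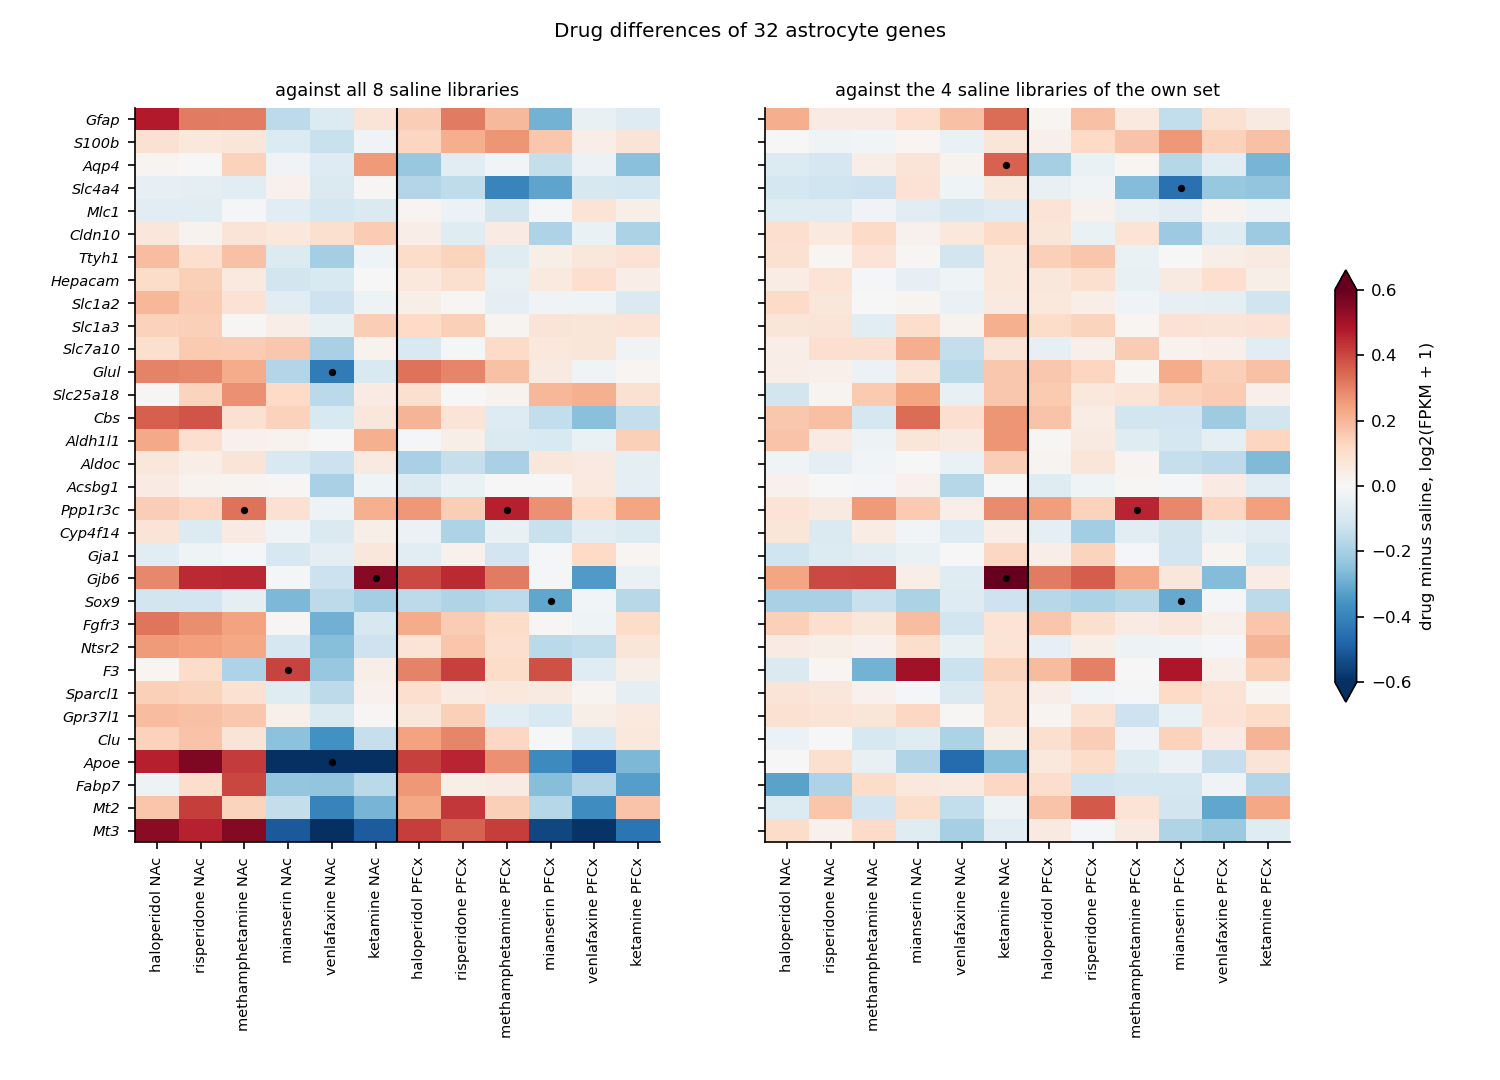
Drug minus saline for the 32 members (log2 of FPKM + 1, 4 drug libraries per cell), with all 8 saline libraries as control and with the 4 of the drug's own set, in NAc and PFCx; dots mark an adjusted p under 0.05 and the colour is capped at 0.6 in either direction. The NAc columns against all saline are mostly above 0 for the set I drugs, and with the own set as control 5 dots are left over both tissues.

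The remaining markers followed with values that were not called. Gfap in NAc measured 4.31, 4.35, 4.79 and 5.12 FPKM in saline I, with 5.07 to 6.5 for haloperidol, 3.66 to 5.77 for risperidone and 3.86 to 5.65 for methamphetamine. In set II saline gave 2.77, 2.88, 3.03 and 3.07 FPKM, with 2.48 to 4.43 for mianserin, 2.76 to 4.45 for venlafaxine and 3.19 to 5.12 for ketamine. Each of the 3 ranges from set I overlapped its own saline, and ketamine stood above its own saline with no call. In PFCx Gfap measured 6.95 to 9.74 FPKM in saline I, 4.52 to 8.86 in saline II and 5.14 to 10.1 with the drugs. Slc1a2 measured 179 to 200 and 156 to 172 FPKM in the saline sets of NAc and 155 to 208 with the drugs, and 178 to 222 with the drugs in PFCx. Aldh1l1 measured 4.78 to 7.81 FPKM with the drugs in NAc and 4.87 to 8.36 in PFCx. The list of reactive astrocyte genes had 0 called genes of 15 with any drug against its own set by limma. By drug and tissue 0.0081% to 2.01% of all genes were called. In saline 13 of the 15 were below 1 FPKM in NAc and 11 in PFCx, so the count does not show that these genes were unchanged.

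**Figure D5:**
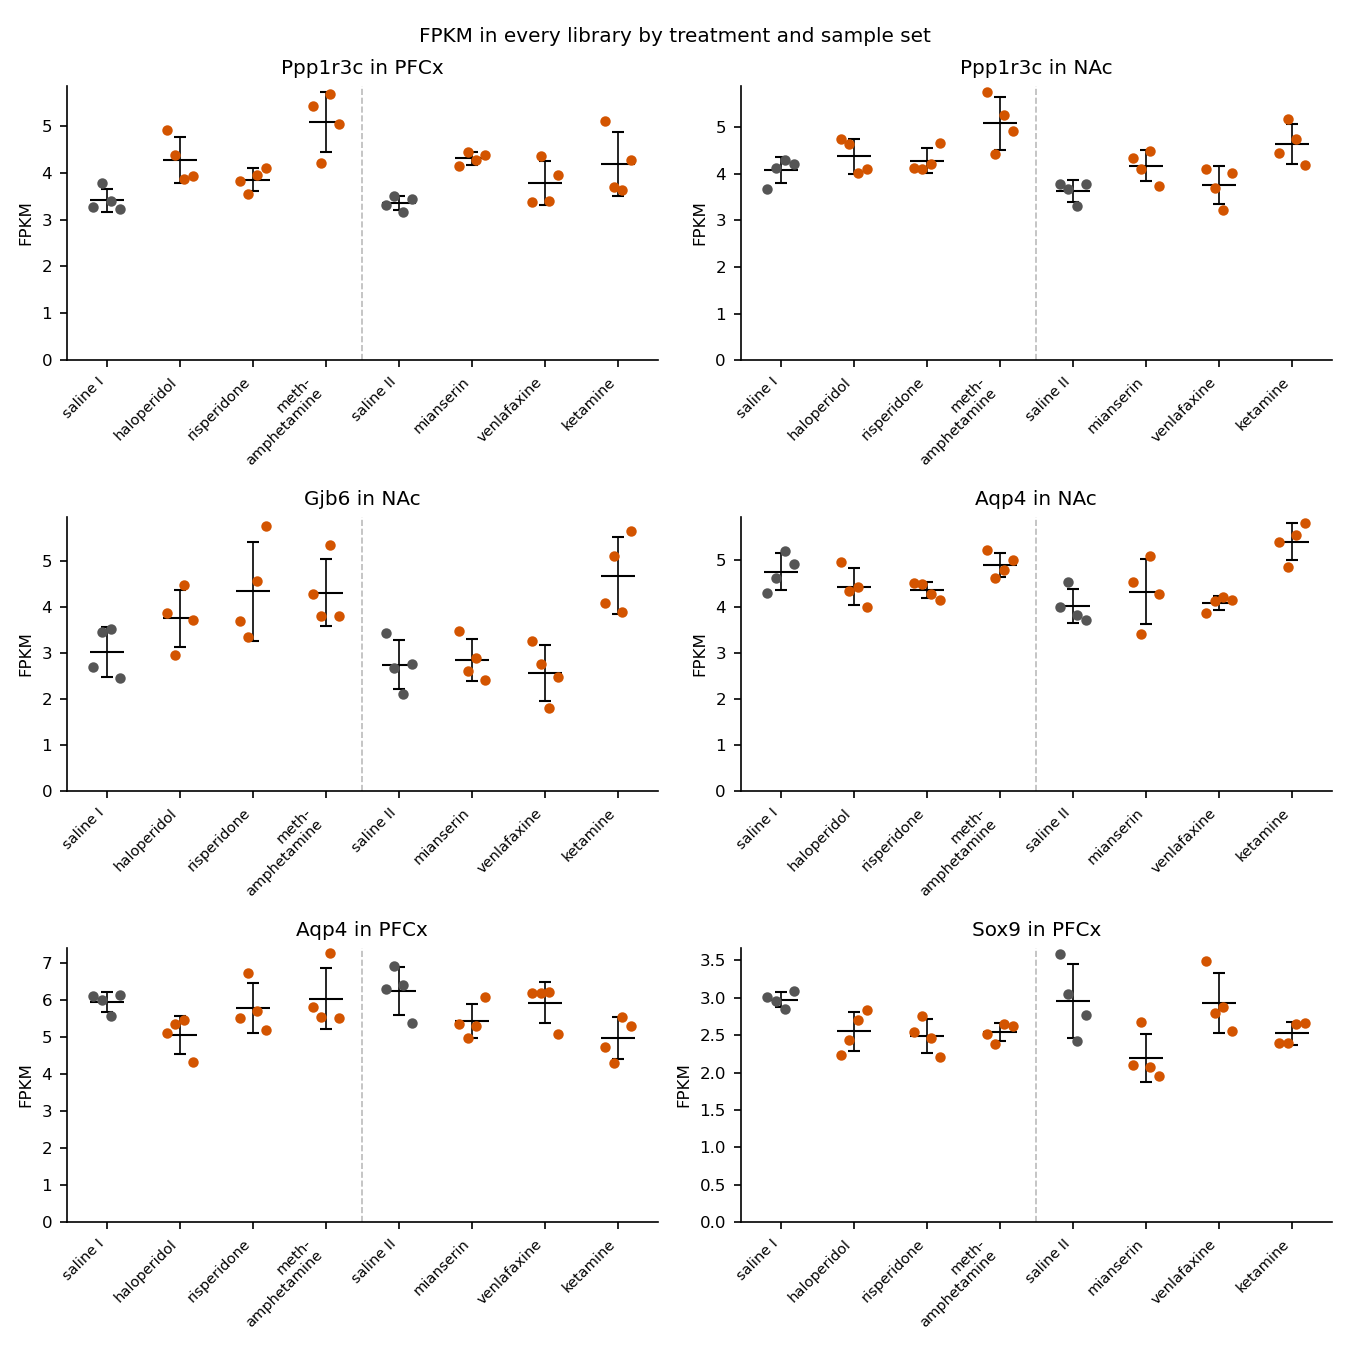
Gene levels in FPKM in every library for Ppp1r3c (PFCx and NAc), Gjb6 (NAc), Aqp4 (NAc and PFCx) and Sox9 (PFCx), by treatment; points are libraries and bars are mean ± SD, with 4 libraries per group and the saline sets apart. Ppp1r3c with methamphetamine in PFCx lies at 4.21 to 5.67, above all saline libraries, and Aqp4 with ketamine lies high in NAc and low in PFCx.

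The transcripts of the members were mostly protein-coding. The 151 transcripts comprised 98 protein-coding, 23 retained-intron, 23 processed and 7 nonsense-mediated decay transcripts, and 11 members had 1 transcript. In 31 of 32 members the main transcript was the same in both tissues and protein-coding. The exception was Ttyh1, which encodes a membrane protein of the tweety family and has 18 transcripts. Isoforms share reads, so their single levels are less certain than the gene sum.

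Between the tissues 15 member transcripts were higher in NAc (5.06% of all transcripts tested) and 12 higher in PFCx (11.9%). The main transcript of Slc4a4, ENSMUST00000148750, measured 11.1 ± 0.587 FPKM in NAc and 5.54 ± 0.319 in PFCx (0.89, adjusted p = 2.05e-09) and made up 44.1% and 44.4% of the gene. That of Slc1a2, ENSMUST00000080210, measured 116 ± 3.42 and 139 ± 8.86 FPKM (-0.26, adjusted p = 8.4e-05). Ttyh1 and Slc1a3, the glutamate transporter GLAST, were the 2 members with transcripts called in both directions. In Ttyh1, ENSMUST00000206869 was higher in NAc (9.39 ± 4.23 against 1.97 ± 2.96 FPKM, adjusted p = 0.00503) and ENSMUST00000032594 lower (13.7 against 20.4 FPKM, adjusted p = 0.0222). In Slc1a3 the retained-intron transcript ENSMUST00000128879 measured 7.56 ± 3.33 and 3.43 ± 2.16 FPKM (1.00, adjusted p = 0.00417).

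With drugs 27 member transcripts passed the F test in NAc against all saline (11.6% of all transcripts) and 1 against the own set (0.645%). In PFCx 4 passed (1.12%) and 1 against the own set (0.484%), the single transcript of Ppp1r3c. The 1 in NAc was the retained-intron transcript ENSMUST00000139789 of Ttyh1 (adjusted p = 0.0274). It measured 3.44, 3.62, 3.62 and 4.19 FPKM in saline I and 4.67, 4.78, 5.21 and 5.25 with methamphetamine, and 3.60, 3.96, 4.19 and 4.31 in saline II and 2.27, 2.64, 2.74 and 3.63 with mianserin. The methamphetamine libraries stood above their saline set, and no single drug passed (own-set adjusted p = 0.53 for methamphetamine and 0.207 for mianserin). In 3 transcripts the F test passed in NAc against all saline while the gene sum did not. ENSMUST00000128879 of Slc1a3 (adjusted p = 0.00437) measured 8.01, 9.41, 11 and 11.7 FPKM in saline I and 2.05, 4.85, 5.02 and 8.41 in saline II. ENSMUST00000157065 of Slc1a3 (0.0124) measured 2.82, 3.22, 4.00 and 7.71 FPKM in saline I, 4.53, 5.14, 7.26 and 8.53 in saline II and 10.5, 10.5, 11.7 and 12.5 with ketamine. ENSMUST00000102478 of Aldoc (0.0223) measured 58.7, 59.8, 64 and 70.7 FPKM in saline I and 43.6, 47.4, 48.0 and 58.2 in saline II. Against the own set their adjusted p-values were 0.945, 0.699 and 0.922.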

How the data were processed

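RNA was ribo-depleted, made into Ion Total RNA-seq libraries and sequenced as single-end reads. The submitters' processing notes name TopHat2 2.0.1, Cufflinks 2.2.1 and the mouse build mm10, and the authors deposited 1 isoform table per library with FPKM values per transcript, which Cufflinks normalises for transcript length and mapped fragments, and with a coverage signal (the deposited coverage was used only to estimate aligned gigabases per library). No read counts were used, so no count test was run. The FPKM of the transcripts of a gene were summed, genes and transcripts with a mean of at least 0.1 FPKM in either tissue were kept, and log2(FPKM + 1) was fitted with limma 3.58.1 in R 4.3.3, with Benjamini-Hochberg adjustment over all features tested and a threshold of 0.05. Drug effects were fitted within a tissue over its 32 libraries, and tissue differences over the 16 saline libraries with the set as covariate. The fits were tested on simulated data. These held no difference between the saline sets and no tie between libraries of the same replicate number. They therefore cannot show how the p-values behave where these are present. Members and the other gene lists were chosen with earlier results of these data known. Genes described by library were Gfap, Aqp4, Slc1a2 and Aldh1l1, up to 8 members with the lowest adjusted p of the drug effect per tissue where a single drug passed, the 4 with the largest tissue difference in each direction, and up to 6 transcripts that passed while the gene sum did not. Promoters came from RefSeq on GRCm38.p6, and transcript types from the GENCODE annotation. Alternatives were another pseudocount, filter, scaling, threshold, control set, gene summary, a replicate block and leaving out each library.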

Additional observations from a re-analysis of the deposited data

Results flagged for a closer look

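In 126 groups of 4 or 8 libraries the highest and lowest values were compared with the rest of the group, a check that chance alone sets off in about 1 in 20 groups, and 7 groups stood out. In PFCx Apoe was 163 FPKM in risperidone replicate 2, above the other 3 libraries. Aqp4 in PFCx was 7.26 FPKM in methamphetamine replicate 3, the highest of its group, and 5.09 in venlafaxine replicate 4, the lowest of its group. Gjb6 was 6.71 FPKM in PFCx mianserin replicate 4, above the rest. In NAc, Slc4a4 was 25.8 FPKM in methamphetamine replicate 2, and Sox9 was 1.86 FPKM in risperidone replicate 3, below the rest. The mean over the members was 3.72 in NAc mianserin replicate 1, the lowest of that group.

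The effect of the 6 drugs differed between NAc and PFCx for Aqp4 (adjusted p = 0.0081) and Aldoc (adjusted p = 0.0457) in the test of the difference over all genes. With the own saline sets as control 1 of them, Aqp4, passed.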

How the results depend on the processing

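With each drug set against its own saline set, the drug effect was called for 4 members in NAc (17 with all saline) and 1 in PFCx (4), methamphetamine, mianserin and venlafaxine each for 0 in NAc, ketamine for 2 in NAc and mianserin for 2 in PFCx, single transcripts for 1 in NAc and 1 in PFCx, and the difference between tissues for 1. The mean over the members in NAc then moved to 0.023 (haloperidol), 0.026 (risperidone), 0.015 (methamphetamine), 0.063 (mianserin), -0.062 (venlafaxine) and 0.111 (ketamine), an alternative chosen after seeing the data, as were the others with the own set as control and those on the saline sets. With the own set kept as control, the drug effect in NAc was called for 0 members with a pseudocount of 0.1 and 2 at the 75th percentile, ketamine in NAc for 1 and 1, mianserin in PFCx for 0 and 1, and ketamine in PFCx for 1 at the 75th percentile. At a threshold of 0.0001 the drug effect was called for 2 members in NAc, 0 in PFCx and 0 transcripts in either tissue, and 0 differed between tissues. With a pseudocount of 0.1 methamphetamine and mianserin had 0 and venlafaxine 1 in NAc, 2 transcripts were called in PFCx and 1 member differed between tissues. Without a filter venlafaxine had 4 and ketamine 3 in NAc and 4 members differed between tissues, and with a mean of at least 1 FPKM mianserin and venlafaxine had 0 and 1 differed. Scaled to the 75th percentile venlafaxine had 1 and ketamine 3 in NAc, 7 differed between tissues, and the mean of NAc minus PFCx was 0.087. With the highest transcript alone mianserin and venlafaxine had 0 in NAc and methamphetamine 2 in PFCx, and Ttyh1 turned to -0.607 between the tissues. With the median over members ketamine in PFCx stood at 0.061 and NAc minus PFCx at 0.226. In set II alone 5 members were higher in NAc. The cause of these shifts was not tested.

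The labels do not say what a replicate number marks, and same-numbered libraries had correlated deviations in part: mean r was 0.06 in NAc and 0.07 in PFCx (-0.02 and -0.022 for different numbers), the lowest pair -0.165 and -0.256, and 24 of 32 NAc and 23 of 32 PFCx libraries correlated best with their own number. The numbers were not taken as pairs in the main fits, although most libraries correlated best with their own number, so the main p-values take no account of it. In PFCx the mean over the members was highest in replicate 1 for saline II, venlafaxine, ketamine, mianserin and haloperidol. It stood 0.173, 0.181, 0.16, 0.121 and 0.088 above the other libraries of the group. In PFCx saline I, risperidone and methamphetamine another replicate was highest. Whether the numbers mark a shared source is not settled. With a replicate block mianserin had 0 and venlafaxine 1 in NAc, 4 members differed between tissues, and the drug effect was called for 18 in NAc and 4 in PFCx. With the own set as control the block left 1 member (F3) in NAc and 1 (Ppp1r3c) in PFCx, ketamine 1 in NAc and mianserin 1 in PFCx.

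Without 1 library each, called members ran from 16 to 20 (NAc) and 4 to 5 (PFCx) for the drug effect, in NAc 0 to 1 for haloperidol, 0 to 0 for risperidone, 0 to 1 for methamphetamine, 0 to 3 for mianserin, 0 to 7 for venlafaxine and 0 to 3 for ketamine, in PFCx 0 to 1 for risperidone, 1 to 1 for methamphetamine, 0 to 2 for mianserin and 0 to 0 for the other drugs, 21 to 30 (NAc) and 3 to 6 (PFCx) for transcripts, 1 to 5 between tissues, against the own set 1 to 4 (NAc) and 1 to 1 (PFCx) for the drug effect, in NAc 0 to 1 for mianserin and 0 to 3 for ketamine, in PFCx 0 to 1 for methamphetamine and 0 to 3 for mianserin, and 0 to 0 for the rest, and 10 to 13 higher in NAc and 6 to 7 in PFCx. The mean over the members ran from 0.124 to 0.177 (haloperidol), 0.128 to 0.181 (risperidone), 0.117 to 0.17 (methamphetamine), -0.091 to -0.038 (mianserin), -0.216 to -0.158 (venlafaxine) and -0.043 to 0.011 (ketamine) in NAc, from 0.074 to 0.126, 0.076 to 0.129, 0.022 to 0.067, -0.087 to -0.026, -0.104 to -0.01 and -0.072 to 0.002 in PFCx, and from -0.02 to 0.033 between the tissues.

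FPKM tables carry no counts, so no counting interval was given, and with 4 libraries a group small changes of low members such as Cyp4f14 were not detectable.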

Other observations

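Among 35 further astrocyte genes, Dio2, the deiodinase with which astrocytes make active thyroid hormone, passed the drug effect test against the own saline sets in both tissues (adjusted p = 7.21e-07 in NAc and 2.62e-05 in PFCx, limma). In NAc it measured 2.81 to 3.47 FPKM in saline II, 5.61 to 6.60 with ketamine and 3.77 to 5.48 with mianserin. Neither drug overlapped saline II, but the mianserin libraries overlapped the 3.37 to 4.38 FPKM of saline I. Ketamine differed by 0.75 (adjusted p = 1.47e-06) and mianserin by 0.39 (0.0361). Methamphetamine raised it from 3.37 to 4.38 FPKM in saline I to 5.55 to 7.08, by 0.54 (0.00211). In PFCx the same 3 drugs raised it, methamphetamine from 5.5 to 5.53 FPKM in saline I to 8.27 to 11.1, by 0.68 (1.45e-05), ketamine by 0.30 (0.0441) and mianserin by 0.325 (0.0207). Dio2 was higher in PFCx than in NAc in saline (-0.58, adjusted p = 1.38e-06). As given in the report, oligodendrocyte and neuronal marker sums were also higher with ketamine in NAc, and their part in these differences was not tested.

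Htra1, a secreted serine protease, rose with ketamine in NAc (0.355, adjusted p = 0.0486) and in PFCx (0.57, 0.0111) and with mianserin in PFCx (0.51, 0.02) against the own saline set. In PFCx it measured 13.1 to 16.3 FPKM in saline II, 19.6 to 26.7 with ketamine and 17.8 to 24.3 with mianserin, while saline I reached 19.8 to 25, so the drug values overlapped the range of the saline libraries of the other set. Fam107a, an actin-associated protein, rose with ketamine in NAc by 0.28 (adjusted p = 0.0239), from 30.2 to 33.1 FPKM in saline II to 37.1 to 41.7.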
